A study of Mus musculus with 3 samples.

Results

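Crxos and the Obox genes Obox1, Obox2, Obox3, Obox5 and Obox6 are 6 homeobox genes that lie beside Crx on mouse chromosome 7. They were followed in mouse retina through every array probe whose RefSeq accession belongs to one of them, which gave 10 of the 55681 probes on the array and covered 5 of the 6 genes, among 21368 genes named by a probe. Crxos had 3 probes, Obox3 had 3, Obox1 had 2, and Obox5 and Obox6 had 1 each. Obox2 had 0 probes and so has no value here. The genes were chosen by their scaled signals on these same arrays, some of which had already been seen to differ between genotypes, so all values below are descriptions of those arrays and none is a test.

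Retinas were taken at postnatal day 12, and total RNA from each genotype was measured on 1 single-colour (Cy3) Agilent array. The 3 groups, wild-type, Otx2 KI and Crx KO, had 1 array apiece. KO and KI commonly stand for knockout and knock-in. The labels do not give the strain of any group, the changed exons, the locus of the knock-in, the copy number of either allele, or how many animals gave RNA. With 1 array per genotype there is no spread between animals to set a difference against. The error given is the scanner software's own, and covers 1 spot's measurement but no biological spread. A difference was called by size, at 2-fold or more (1 on the log2 scale).

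Crx encodes a homeodomain transcription factor that switches on rod and cone genes, and Otx2 encodes a related factor that acts before it and in bipolar cells. Crxos, short for Crx opposite strand, is read from the other strand beside Crx and encodes a homeodomain protein also known as Egam1. The Obox genes encode oocyte-specific homeobox proteins, known from the egg and the early embryo and not as genes of the retina. In the RefSeq gene order of GRCm38.p6 the genes run Obox2, Obox1, Obox3, Obox5, Obox6, Crx, Crxos, with Obox4 pseudogenes between the Obox genes, so that Obox6 and Crxos are the direct neighbours of Crx on its left and right.

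The sequences around the starts of these genes show how alike the Obox copies are, and where the core letters recognised by Crx and Otx2 occur. The windows, from RefSeq on GRCm38.p6, hold 250 bases before and 50 after the annotated start, and run in the direction of the gene. Capitals mark TAATCC or TAATCT on either strand (GGATTA or AGATTA when read in the other direction), and the motifs do not overlap here. The table held 3 windows for Crxos, 1 each for Obox1, Obox2, Obox3 and Obox5, and Obox6 is named only. The Crxos windows lie on the plus strand at chr7:15882367-15882666, chr7:15895874-15896173 and chr7:15901396-15901695. The Obox2, Obox1 and Obox5 windows lie on the plus strand at chr7:15388601-15388900, chr7:15547007-15547306 and chr7:15750120-15750419, and the Obox3 window on the minus strand at chr7:15639728-15640027.
Crxos start 1: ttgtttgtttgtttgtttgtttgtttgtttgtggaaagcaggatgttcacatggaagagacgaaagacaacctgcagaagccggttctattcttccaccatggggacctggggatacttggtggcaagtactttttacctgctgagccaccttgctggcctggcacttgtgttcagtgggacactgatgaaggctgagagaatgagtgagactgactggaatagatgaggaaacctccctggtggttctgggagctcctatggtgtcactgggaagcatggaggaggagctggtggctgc
Crxos start 2: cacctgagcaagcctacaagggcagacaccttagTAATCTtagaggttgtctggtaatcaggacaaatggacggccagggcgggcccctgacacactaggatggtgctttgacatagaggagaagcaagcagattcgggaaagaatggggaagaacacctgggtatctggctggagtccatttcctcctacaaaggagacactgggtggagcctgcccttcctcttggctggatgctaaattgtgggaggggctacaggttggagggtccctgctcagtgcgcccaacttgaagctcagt
Crxos start 3: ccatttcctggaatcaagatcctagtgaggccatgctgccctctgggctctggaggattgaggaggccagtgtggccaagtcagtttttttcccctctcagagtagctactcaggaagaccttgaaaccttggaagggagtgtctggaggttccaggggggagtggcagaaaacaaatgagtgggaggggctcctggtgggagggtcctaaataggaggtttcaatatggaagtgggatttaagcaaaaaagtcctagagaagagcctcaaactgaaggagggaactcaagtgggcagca
Obox1: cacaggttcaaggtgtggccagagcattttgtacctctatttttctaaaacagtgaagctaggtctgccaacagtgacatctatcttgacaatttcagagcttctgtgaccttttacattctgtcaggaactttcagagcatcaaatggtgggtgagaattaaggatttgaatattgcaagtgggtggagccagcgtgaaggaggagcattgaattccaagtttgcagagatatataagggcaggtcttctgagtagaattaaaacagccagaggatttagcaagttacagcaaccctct
Obox2: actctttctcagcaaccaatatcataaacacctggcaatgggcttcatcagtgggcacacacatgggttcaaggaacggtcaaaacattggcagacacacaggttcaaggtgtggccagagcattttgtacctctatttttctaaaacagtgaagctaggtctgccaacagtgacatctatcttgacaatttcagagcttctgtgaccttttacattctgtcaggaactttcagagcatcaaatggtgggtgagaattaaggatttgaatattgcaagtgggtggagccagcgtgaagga
Obox3: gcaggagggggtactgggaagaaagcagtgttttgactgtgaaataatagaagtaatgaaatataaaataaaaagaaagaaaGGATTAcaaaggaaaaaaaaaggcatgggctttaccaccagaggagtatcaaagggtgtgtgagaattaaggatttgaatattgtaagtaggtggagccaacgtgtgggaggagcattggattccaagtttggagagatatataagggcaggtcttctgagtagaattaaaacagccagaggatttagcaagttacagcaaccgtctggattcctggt
Obox5: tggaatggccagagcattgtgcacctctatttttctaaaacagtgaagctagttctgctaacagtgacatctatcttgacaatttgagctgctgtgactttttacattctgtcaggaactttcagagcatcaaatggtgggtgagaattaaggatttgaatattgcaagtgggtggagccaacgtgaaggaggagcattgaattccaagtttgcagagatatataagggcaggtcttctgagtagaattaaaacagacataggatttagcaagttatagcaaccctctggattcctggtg

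The windows of Obox1, Obox2 and Obox5 were close copies of each other. In local alignments the Obox1 and Obox2 windows shared a stretch in which 203 of 203 bases were identical, and Obox1 and Obox5 were identical at 275 of 289 aligned columns (95.2%). Obox3 stood further off, at 211 of 303 columns with Obox1 (69.6%) 217 of 303 with Obox5 (71.6%) and 117 of 206 with Obox2 (56.8%). The 3 Crxos windows were identical to each other at 50.3% to 53.9% of aligned columns, and no pair of a Crxos and an Obox window exceeded 53.9%. A probe could catch more than 1 Obox transcript if the transcripts are as alike as the closest of these windows. The probe sequences are not used here, so which copies each Obox probe binds was not checked.

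TAATCC occurred once among the member windows, in Obox3, with its first base at position -168 from the start. TAATCT also occurred once, in the window of Crxos start 2, with its first base at -216. The Obox1, Obox2 and Obox5 windows and the windows of Crxos starts 1 and 3 held neither. Of all 32851 promoter windows in the table, 7.06% held TAATCC, 8.19% held TAATCT and 14.4% held one or the other. The window of Crx itself held TAATCC 2 times.

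Obox6 gave the sharpest contrast between the arrays. Its probe, A_66_P124638, had a scaled signal (the processed signal brought to the scale of the wild-type array at the 75th percentile) of 65.6 in wild-type retina, 3.49 in Otx2 KI and 4558 in Crx KO. The signal was well above background in wild-type and Crx KO and not in Otx2 KI. Crx KO thus stood far above the other arrays, and wild-type lay between the mutants. Obox6 was 69.5-fold higher in Crx KO than in wild-type (log2 6.12, scanner error 0.21). Against wild-type, 0 of the 38207 probes with a value or an at-least value had a larger increase in Crx KO.

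In the Otx2 KI array the Obox6 signal was close to that of blank spots. Its processed signal there, before scaling, was 3.43 with a scanner error of 2.77, and the 308 negative control spots of that array had a median of 2.81 and a 95th percentile of 3.23. Obox6 was at least 5.28-fold lower in Otx2 KI than in wild-type (log2 -2.40) and, set against Crx KO, at least 367-fold lower (log2 -8.52). These at-least folds set the bright signal against 12.4, the lowest scaled signal of any probe well above background on the Otx2 KI array. Of 37365 probes with a value or an at-least value in the direct comparison of the mutants, 0 lay lower than Obox6. With normexp, a background correction that adds an offset and so shrinks folds of dim spots, Obox6 in Crx KO stood at log2 5.23 against wild-type. In Otx2 KI it stood at log2 -0.83 or lower against wild-type, an at-least value short of the 2-fold call.

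The spots around Obox6 did not share its contrast. The 24 spots nearest to it had median processed signals between 7.71 and 11.5 on the 3 arrays, and their highest signals lay between 19148 and 22628. The local background beside the spot was 41.5 in Crx KO, 45 in Otx2 KI and 49 in wild-type, against a spot median brightness of 4475, 39.5 and 94.5 in the same order.

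**Figure D1:**
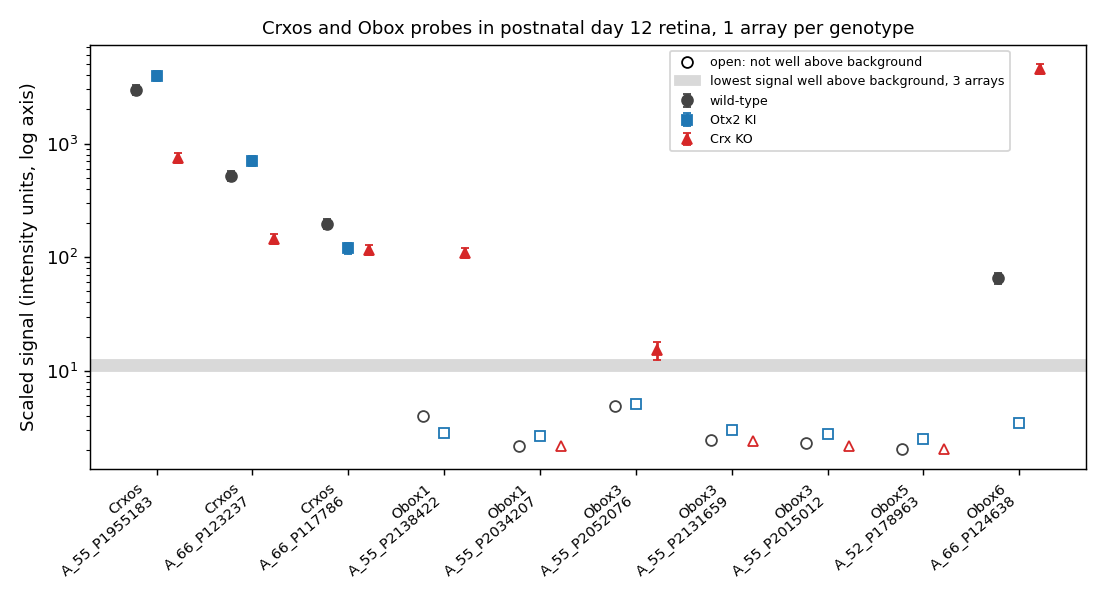
Scaled signal (vertical, intensity units on a log axis) of the 10 Crxos and Obox probes (horizontal) in wild-type, Otx2 KI and Crx KO, 1 array each. Filled points are well above background with the scanner software's error as a bar, open points are not, and the grey band spans the lowest signals well above background on the 3 arrays. Obox6 reads 4558 in Crx KO against 65.6 in wild-type, and 2 Crxos probes read 749 and 146 in Crx KO against 2965 and 518 in wild-type.

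Among the other Obox genes, 1 probe of Obox1 and 1 of Obox3 were well above background, each in Crx KO alone. Obox1, on probe A_55_P2138422, gave scaled signals of 4.03 in wild-type retina, 2.87 in Otx2 KI and 109 in Crx KO. Its signal in Crx KO was at least 10.8-fold higher than in wild-type (log2 3.43) and at least 8.81-fold higher than in Otx2 KI. The processed signal of 109 in Crx KO lay above all 308 negative control spots of that array, whose highest was 32.5. With normexp the increase over wild-type was at least log2 1.36.

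Obox3, on probe A_55_P2052076, gave scaled signals of 4.90 in wild-type retina, 5.13 in Otx2 KI and 15.2 in Crx KO. This was above wild-type by at least 0.58 on the log2 scale, short of the 2-fold call, and the Crx KO value lay inside the range of the negative control spots. The scanner error of the Crx KO processed signal, 15.1, was 2.84. This probe and the brighter Obox1 probe passed the background flag through the Crx KO array alone. That array being the highest on them therefore adds nothing to the Obox6 value. The Obox3 level in Crx KO was close to the limit of detection.

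The remaining Obox probes were not well above background on any array. Obox1 on its other probe, A_55_P2034207, gave scaled signals of 2.20, 2.69 and 2.20 in wild-type, Otx2 KI and Crx KO. The 2 Obox1 probes therefore disagreed in Crx KO, where one read 109 and the other stayed at background. Obox3 on its other probes, A_55_P2131659 and A_55_P2015012, had scaled signals between 2.18 and 2.99, and Obox5, on A_52_P178963, had scaled signals between 2.04 and 2.51. Such values sit close to the median of the negative controls (2.35, 2.81 and 2.25 units of processed signal on the 3 arrays) and have no order.

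Crxos was well above background on all arrays, and 2 of its 3 probes were lower in Crx KO than in wild-type by more than 2-fold. Its brightest probe, A_55_P1955183, gave scaled signals of 2965 in wild-type retina, 3947 in Otx2 KI and 749 in Crx KO. It was 3.96-fold lower in Crx KO than in wild-type (log2 -1.99, scanner error 0.20) and 1.33-fold higher in Otx2 KI (log2 0.41, scanner error 0.20). Probe A_66_P123237, for another Crxos transcript, gave scaled signals of 518 in wild-type retina, 701 in Otx2 KI and 146 in Crx KO. The 2 probes differed by 0.16 (scanner error 0.29) in their log2 difference between Crx KO and wild-type, and by 0.02 in that between Otx2 KI and wild-type. On these 2 probes Otx2 KI was highest and Crx KO lowest, the opposite order to Obox6. The Otx2 KI difference from wild-type was within 2-fold on both and so was not called.

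The remaining Crxos probe gave another pattern. A_66_P117786, assigned to the same transcript accession as the brightest probe, gave scaled signals of 197 in wild-type retina, 120 in Otx2 KI and 117 in Crx KO. Both mutants were below wild-type and next to each other, at log2 -0.71 for Otx2 KI and -0.75 for Crx KO (scanner error 0.21 each). For Otx2 KI its difference from wild-type lay 1.13 below that of the brightest probe, 3.87 times the scanner error of that gap. In the comparison of Otx2 KI with Crx KO the probes spread over 2.36 on the log2 scale, from 0.04 to 2.40. Of 641 genes with exactly 3 measured probes, Crxos among them, 0.312% spread at least as widely in that comparison, and the median spread was 0.20. The share was larger in the other comparisons, 2.90% for Crx KO and 1.73% for Otx2 KI against wild-type. The mean of the 3 probes was log2 -1.52 for Crx KO and 0.045 for Otx2 KI against wild-type, so a statement on Crxos in Otx2 KI depends on the probe.

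**Figure D2:**
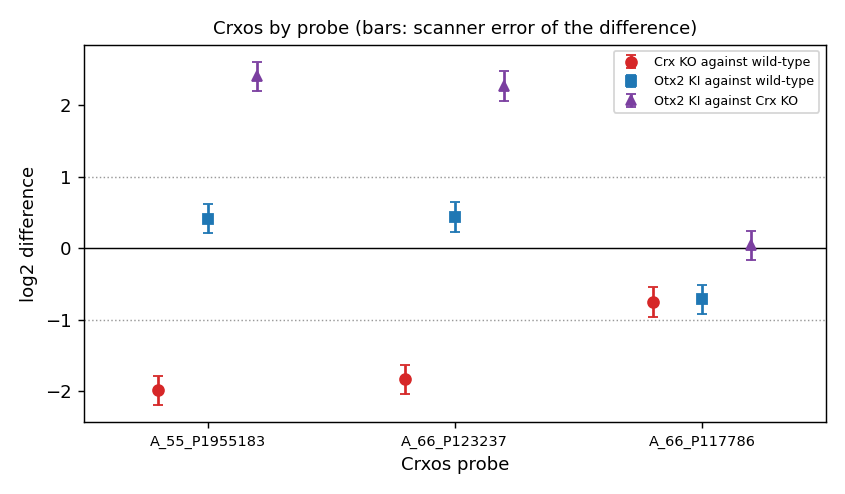
Log2 difference (vertical) for each Crxos probe (horizontal) in Crx KO against wild-type, Otx2 KI against wild-type and Otx2 KI against Crx KO, 1 array per genotype. Bars are the scanner software's error of the difference and dotted lines mark 2-fold. In the comparison of the mutants A_55_P1955183 stands at 2.40 and A_66_P123237 at 2.27, while A_66_P117786 stands at 0.04.

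Counted over the members, 6 of the 10 probes had a value or an at-least value between Crx KO and wild-type. Of these 4 differed by 2-fold or more, 2 higher (Obox6, Obox1) and 2 lower (Crxos). Of all 38207 probes with a value, 6.46% did (2.88% higher, 3.58% lower). Another 2 member probes did not reach 2-fold, 1 of Crxos by a measured difference and 1 of Obox3 by an at-least value. The remaining 4 were dim on both arrays. Between Otx2 KI and wild-type 1 of 10 did (Obox6, lower), with 4.40% of all probes called (1.59% higher, 2.81% lower), 3 were within 2-fold and 6 were dim on both arrays. Between Otx2 KI and Crx KO 4 of the 6 member probes with a value were called, with 2.18% of all probes called (0.91% higher, 1.27% lower). Of those 4, 2 Crxos probes were higher in Otx2 KI and the Obox6 and Obox1 probes lower. The mutant comparisons share the wild-type array. A dim Obox gene enters these counts only through an array on which it is bright, so it could hardly appear without a difference, and the genes were chosen for their differences. No share of called members is read against the background for that reason.

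**Figure D3:**
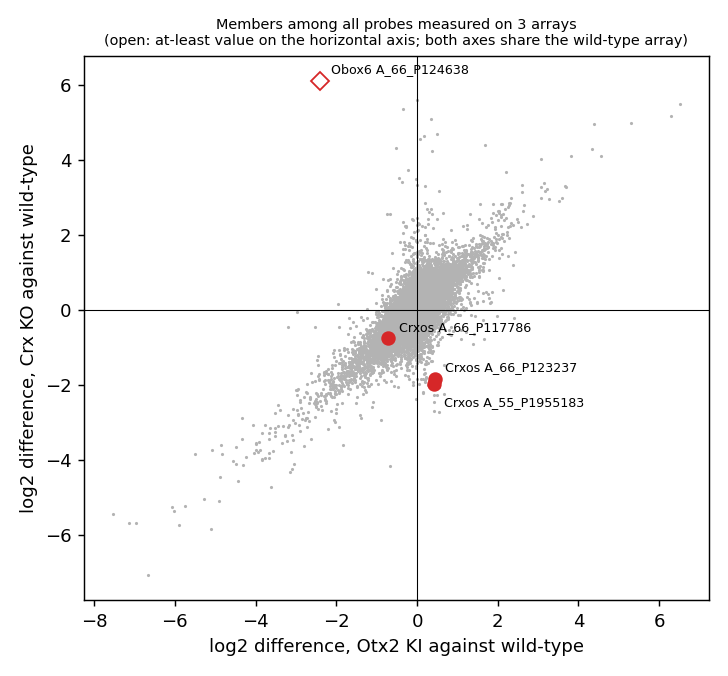
Log2 difference in Crx KO against wild-type (vertical) and in Otx2 KI against wild-type (horizontal) for the 34224 probes measured on all 3 arrays (grey), with the 4 Crxos and Obox6 probes that have a value in both; both axes use the same wild-type array. Obox6 (open, an at-least value on the horizontal axis) lies at 6.12 and -2.40, away from the diagonal cloud, and 2 Crxos probes lie below it on the right, at -1.99 and 0.41 and at -1.83 and 0.44.

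The genes on either side were read next, to see how far along the chromosome such differences ran. Crx itself, on its single probe, gave scaled signals of 9790 in wild-type retina, 1062 in Otx2 KI and 7177 in Crx KO. Crx and Obox6, neighbours in gene order, were thus both lowest in Otx2 KI, while in Crx KO Crx was 1.36-fold lower than wild-type and Obox6 was 69.5-fold higher. The labels do not place the Crx probe inside or outside the altered sequence, so its signal is no test of the genotypes. Otx2 gave scaled signals of 40887 in wild-type retina, 63860 in Otx2 KI and 62981 in Crx KO, nearly the same in both mutants, so it does not set them apart either.

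Beyond Crxos the next genes with a value did not reach 2-fold from wild-type, though they are too few to be set apart from all genes. Of the 24 other genes among the 25 after Crx, 18 had a probe. For Crx KO against wild-type 16 of these had a value, from log2 -0.49 to 0.48 with a median of -0.09, and 0 reached 2-fold, where 6.25% of all 16780 genes with a value did (2.37% higher, 3.88% lower). For Otx2 KI against wild-type 17 had a value, from -0.20 to 0.60, and again 0 reached 2-fold, with 4.48% of all genes called (1.53% higher, 2.95% lower). The 0.60 was an at-least value. Selenow, which encodes a small selenoprotein and is the nearest of these with a probe, gave scaled signals of 21487 in wild-type retina, 26400 in Otx2 KI and 21785 in Crx KO. Nop53, a ribosome biogenesis factor, had 2300, 2022 and 1681. In the mutants set against each other 17 of these 18 genes had a value. The widest difference among them was log2 0.96, with 1.92% of all genes called (0.895% higher, 1.03% lower).

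On the other side of Crx the gene order holds the Obox genes, 18 pseudogenes and 2 small RNA genes among the 25 before it, and 0 of those 20 other genes had a probe. So on that side the Obox members are the only values. A width of 50 genes on each side was added after the values were seen. There 1 of 28 other genes with a value differed by 2-fold or more between Crx KO and wild-type. Over all genes 6.25% did, so the count does not set these neighbours apart. The 1 gene was Gng8, a G protein gamma subunit gene 45 places from Crx. Its scaled signals were 249 in wild-type retina, 266 in Otx2 KI and 70.2 in Crx KO.

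**Figure D4:**
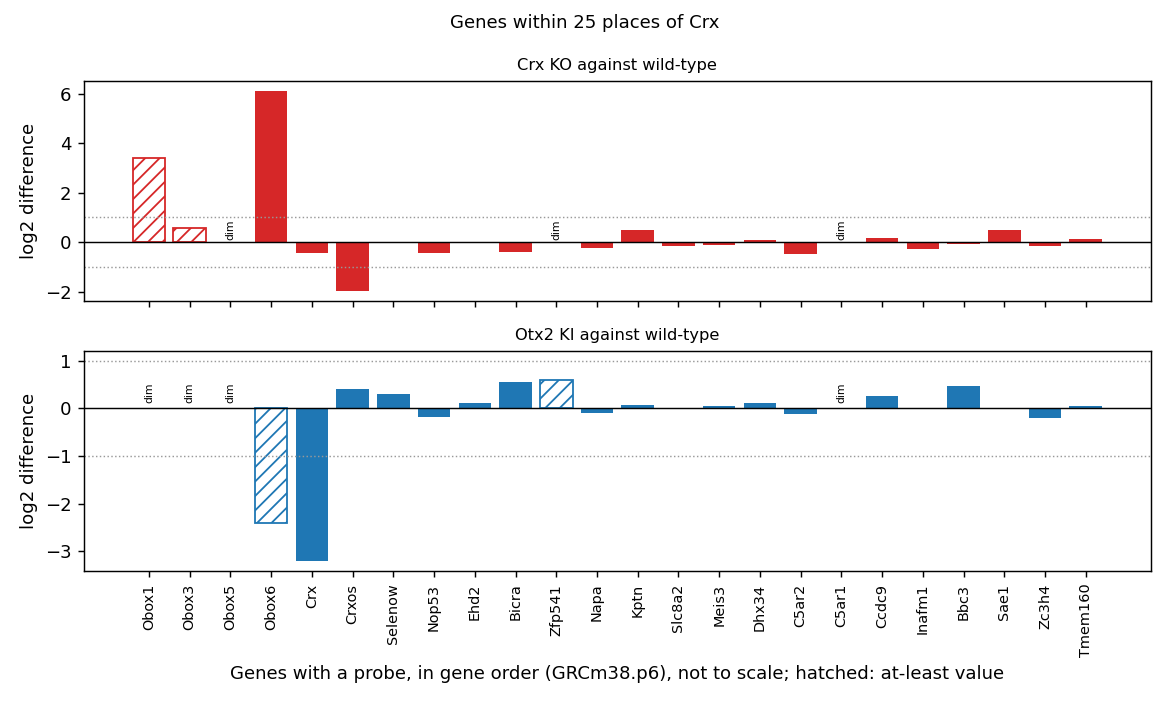
Log2 difference (vertical) of the brightest probe of each gene with a probe within 25 places of Crx, in gene order (horizontal, not to scale), for Crx KO against wild-type (top) and Otx2 KI against wild-type (bottom). Hatched bars are at-least values, "dim" marks genes not well above background on both arrays, and dotted lines mark 2-fold. Obox6 (6.12) and Crxos (-1.99) pass 2-fold on either side of Crx in Crx KO, Obox1 does further left at no less than 3.43, and the genes to the right of Crxos stay between -0.49 and 0.48.

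Other homeobox genes of the paired-like kind were read as the wider family. Of 26 listed genes 23 had a probe and 13 were well above background on all arrays. Between Crx KO and wild-type 0 of the 13 were higher and 2 were lower by 2-fold or more, and the median difference was -0.10 on the log2 scale (-0.01 over all genes, of which 6.25% were called). The lower genes were Duxbl1, a double homeobox gene, at scaled signals of 163 in wild-type retina, 32.8 in Otx2 KI and 43.9 in Crx KO, and Dmbx1, a homeobox gene of the developing brain and retina, with 120, 82.6 and 55.9. Between Otx2 KI and wild-type 1 was higher (Gsc2, at 2.02-fold), 2 were lower (Crx and Duxbl1), and the median was -0.14 (0.02 over all genes, of which 4.48% were called). Obox7, the remaining Obox gene with a probe, was not well above background on any array, with scaled signals of 7.32, 3.54 and 2.60. Otx2 KI against Crx KO gave 0 higher and 1 lower (Crx) of the 13, where 1.92% of all genes were called.

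Most genes of the egg and early embryo with a value did not reach 2-fold, and those that did went in both directions. Of 32 listed genes 30 had a probe and 17 were well above background on 1 or more arrays. Against wild-type 14 of the 17 did not reach 2-fold in either mutant comparison. The median log2 difference was -0.0003 in Crx KO (-0.01 over all genes) and -0.07 in Otx2 KI (0.02 over all genes). In Crx KO 2 of 17 were higher than wild-type by 2-fold or more and 1 was lower, 3 of 17 in all, where 6.25% of all genes were called. The higher ones were Nlrp5 and Zp3. Nlrp5, an egg protein also known as Mater, had scaled signals of 16.0 in wild-type retina, 24.8 in Otx2 KI and 95.7 in Crx KO. Zp3, a protein of the egg coat, had 16.6, 16.8 and 33.6. Their wild-type signals lay close to 10.2, the lowest scaled signal well above background on that array. The lower one was Bmp15, an oocyte growth factor, with 55.2 in wild-type and 2.76 and 2.21 in the mutants, neither well above background. In Otx2 KI 1 of 17 was higher than wild-type (Pou5f1, a pluripotency factor, with 2.57, not well above background, then 23.3 and 17.5) and 2 were lower (Bmp15, and H1f8, the oocyte linker histone, with 445, 218 and 267), 3 of 17 in all, where 4.48% of all genes were called. Otx2 KI against Crx KO gave 0 higher and 1 lower (Nlrp5) of 15, where 1.92% of all genes were called. Among the 8 genes that mark the egg, Zp2, Nobox, Figla and Oosp1 were not well above background on any array. The summed scaled signal of those 8 was 378 in wild-type retina, 441 in Otx2 KI and 380 in Crx KO, and most of each sum came from Gdf9, an oocyte growth factor (280, 388 and 315), so it says little about the others.

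The labelled tissue was checked on retinal markers. The 6 rod markers and the 5 bipolar markers were well above background on all arrays. The summed signal of the rod markers was 415825 in wild-type retina, 142846 in Otx2 KI and 140568 in Crx KO, and that of the bipolar markers 101649, 89330 and 99953. The summed rod signal was thus lower in both mutants than in wild-type. In a whole retina fewer cells of a type and less RNA per cell cannot be told apart. Lens markers (Cryaa, Crygs, Crybb2; 3 of 3 well above background in wild-type and Otx2 KI, 2 of 3 in Crx KO) had the order of the 2 brighter Crxos probes, with summed signals of 174, 495 and 97.4 in wild-type, Otx2 KI and Crx KO. Pigment epithelium markers, 3 of 4 well above background on each array, summed to 8426, 3812 and 2972. Their part in the Crxos and Obox differences was not tested.

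The genes most like Crxos and Obox6 over the 3 arrays were found by the distance between log2 signals, each centred on its own mean. Nearest to the brightest Crxos probe among 15741 genes were S100a9, Vmn2r35, Gm3893, Bub1b and Trim12a, at distances of 0.20 to 0.29. S100a9, a calcium-binding protein of neutrophils, gave scaled signals of 50.2 in wild-type retina, 55.7 in Otx2 KI and 11.0 in Crx KO, and Bub1b, a mitotic checkpoint kinase, had 262, 307 and 75.7. Nearest to Obox6 among 16177 genes were Vmn2r67, Klk1b22, Gdpd3, Sv2c and Klk1b27, at distances of 3.32 to 4.27. These ranks use the Otx2 KI signal of Obox6, which was not well above background, and Vmn2r67, Sv2c and Klk1b27 were also dim on 1 array each. With dim signals raised to the lowest bright signal of their array, an alternative added after the values were seen, the nearest were Klk1b22, Gdpd3, Klk1b27, Tescl and Sv2c, at 2.21 to 2.93, and Vmn2r67 ranked 7. The order therefore depends on how dim signals are treated, while the 5 genes nearest Crxos were the same. Vmn2r67, a vomeronasal receptor gene, read 34.5 in wild-type retina, 4.03 (not well above background) in Otx2 KI and 230 in Crx KO. Klk1b22, a tissue kallikrein, had 44.1, 44.3 and 2125. Chromosome 7, which carries Crx, held 4 of the 5 genes nearest Obox6 (all but Sv2c) under either treatment, and 8.21% of the genes compared. It held 2 of the 5 nearest Crxos, and 8.10% of the genes compared. Klk1b22 and Klk1b27 belong to 1 kallikrein family and are not separate cases. Under neither treatment did any gene lie as near Obox6 as the 5 nearest lay to Crxos. With 3 arrays such likeness rests on 3 points per gene and is a description.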

How the data were processed

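The deposited scanner files hold linear intensity values per spot from Agilent Feature Extraction 12.0.3.1, per the file headers, on a design that refers to mm9. The processed signal, already background-subtracted by that software, was used. The authors' deposited value table holds the same intensity times a fixed factor (wild-type 2.49, Otx2 KI 2.54, Crx KO 2.61; column medians 129.8, 125.7 and 135.8 in turn), whose basis is unknown here. All arrays lay on 1 slide in 1 scan, so position on the slide and genotype cannot be told apart.

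Control spots and outlier spots (126 to 136 per array) were left out. Log2 signals were reduced by each array's 75th percentile (574, 564 and 570) and put on the wild-type scale. Per array, 63.5% to 67.1% of 59305 spots passed the well-above-background flag, 0 spots were saturated, and the number of arrays limits the precision. Accessions were matched without versions to RefSeq genes of GRCm38.p6, naming 28331 probes; its gene order was used, and its only coordinates printed are those of the promoter windows. A gene was read by its brightest probe. Where 1 of 2 arrays was not well above background, the bright signal was set against the higher of the dim probe's own signal and that array's lowest bright signal, giving an at-least fold. No test or p-value is possible with 1 array per group. Steps were tested on simulated data.

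Genes named were the members, genes of the homeobox and egg lists, neighbours past 2-fold within 25 genes of Crx (0 beside the members) and the 5 nearest patterns for Crxos and Obox6. Selenow, Nop53, Gng8 (from a window of 50), Tescl and the lens markers fall outside that rule and were named after their values were seen. Members and lists were chosen with earlier results of these data known. The files hold no mean spot signal, so normexp (limma 3.58.1, R 4.3.3, offset 50) ran on median signals. A planned comparison of protein sequences was not run. Python 3.11.15, numpy 2.4.6, pandas 2.3.3 and biopython 1.88 were used.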

Additional observations from a re-analysis of the deposited data

Results flagged for a closer look

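Against the shared wild-type array, the mutant arrays had differences of opposite sign on 3 probes, and these differences between genotypes were not tested. Obox6 on A_66_P124638 stood at log2 6.12 in Crx KO and at -2.40 or lower in Otx2 KI. Crxos on A_55_P1955183 stood at -1.99 and 0.41, and on A_66_P123237 at -1.83 and 0.44, so that on both the Otx2 KI difference was within 2-fold. The remaining Crxos probe, A_66_P117786, had the same sign in both mutants (-0.75 and -0.71). Each genotype has 1 array, so 1 RNA preparation decides every one of these values.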

How the results depend on the processing

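Quantile normalization, centring on the median, the authors' value table and keeping outlier spots moved no value past the scanner error and no count by over 1.5 times. Normexp background correction moved 13 of 22 values or counts. No setting reversed a member's direction. The thresholds and the dim filter change the counts by construction, and the normexp offset shrinks folds of dim spots by construction. Any other cause was not tested. With normexp Obox6 stood at log2 5.23 (Crx KO against wild-type). Its at-least values were -0.83 (Otx2 KI against wild-type) and -6.06 (Otx2 KI against Crx KO). Those of Obox1 were 1.36 (Crx KO against wild-type) and -1.37 (Otx2 KI against Crx KO). With offset 0, added after seeing the data, the at-least values of Obox6 were -2.04 (Otx2 KI against wild-type) and -8.02 (Otx2 KI against Crx KO). That of Obox1 was 2.91 (Crx KO against wild-type). Averaging its probes put Crxos at -1.52, 0.045 and 1.57 in Crx KO against wild-type, Otx2 KI against wild-type and Otx2 KI against Crx KO. Members called between Crx KO and wild-type fell from 4 to 2 at a 4-fold threshold. Members called between Otx2 KI and wild-type went from 1 to 0 with normexp and to 2 at 1.5-fold. For Crx KO against wild-type all probes called numbered 2470, and 963 with normexp, 5654 without the filter on dim probes, 6271 at 1.5-fold and 509 at 4-fold. For Otx2 KI against wild-type they numbered 1634, and 729, 4276, 4264 and 374 under the same settings in turn. For Otx2 KI against Crx KO they numbered 813, and 196, 3467, 2813 and 158. No paired analysis was possible because each genotype has 1 array, and none could be left out. Signal over background limits the Obox1 and Obox3 values and the Otx2 KI value of Obox6.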
